A study of Homo sapiens with 6 samples.

Results

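B3GNT7 is an N-acetylglucosaminyltransferase of the Golgi that lengthens chains of keratan sulfate, and it is described here with 9 related enzymes in THP-1, a human monocytic leukaemia line. The genes were found by matching Ensembl identifiers to their symbols, and all 10 were found among 78647 genes in the deposited tables. They were chosen with earlier results of these data known, which include the lower level of B3GNT7 in cells overexpressing PTX4, and all act on lactosamine chains or their precursors. Differences of these 10 genes between the conditions are therefore given as a description with no p-value, and where their calls are counted nothing is read from the count.

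One line was THP-1 stably transduced with a PTX4 overexpression construct (PTX4-OE, 3 libraries), and its control was THP-1 stably transduced with an empty vector (EV, 3 libraries). Both carried a vector and were grown without other treatment named in the labels. The sources used here do not give the promoter of the construct or whether each line is 1 clone or a pool. The PTX4 gene product, pentraxin 4, is a secreted protein related to C-reactive protein, which binds microbes and damaged cells. The comparison asks which transcripts differ with PTX4 overexpression. Other differences between the lines cannot be told apart from an effect of PTX4.

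Polylactosamine is a chain of alternating galactose and N-acetylglucosamine that extends glycans on proteins and lipids. It is built by turns of 2 kinds of enzyme, the B3GNT transferases, which add N-acetylglucosamine, and the B4GALT transferases, which add galactose. Keratan sulfate is the same chain with sulfate added by CHST sulfotransferases. On leukocytes, polylactosamine is bound by galectins, and capped with sialic acid and fucose it forms the ligands of selectins.

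The total expected count per library was 29670641 to 37718207. PTX4 separated the groups, with 24633, 14398 and 15782 expected counts in the PTX4-OE libraries and 0, 3 and 4 in the EV libraries. Of 12 monocytic marker genes 11 had a mean of at least 1 TPM, a level scaled for gene length and library size. Their summed level was 3016 to 3315 TPM in PTX4-OE and 3017 to 3225 TPM in EV. With replicate number as a block, 0.233% of all genes tested were called lower (edgeR quasi-likelihood test). Of the 11 markers that passed the filter on low counts 2 fell in that fit. These were MPO, the peroxidase of myeloid granules, at -0.54 on the log2 scale (SE 0.080, adjusted p = 0.0080), and CSF1R, the receptor that drives macrophage growth, at -0.30 (SE 0.056, adjusted p = 0.039). Neither passed without the block, or with the block when number 2 was left out, where MPO was at -0.51 and CSF1R at -0.26. Of the 11 tested markers 8 had negative log2 fold changes with the block, as did 8474 of 17624 genes tested. In all 3 pairs of like replicate number 5 were lower and 1 higher, where 14.1% and 16.4% of all genes tested were. The most abundant of the list were the granule proteases ELANE, at a mean of 1637 TPM, and CTSG, at 800 TPM, which weigh most in the sum. On the log2 scale ELANE was at 0.054 (SE 0.054) and CTSG at -0.091 (SE 0.050). Of 11 epithelial and fibroblast markers 1 reached that mean (KRT8), and 4 were at 0 in every library (EPCAM, COL1A2, COL3A1 and DCN). Their summed level was 2.24 to 2.94 TPM in PTX4-OE and 1.82 to 2.67 TPM in EV, and the highest were KRT8 at 0.19 (SE 0.22) and PDGFRB at 0.45 (SE 0.25) on the log2 scale. Of 13 lymphoid and erythroid markers 1 reached that mean (NKG7), with a sum of 19.5 to 25.6 TPM in PTX4-OE and 26.5 to 27.6 TPM in EV, and 6 were at 0 in every library (CD3E, CD3D, CD8A, MS4A1, HBB and PF4). The highest were NKG7 at -0.25 (SE 0.10) and CD79A at 0.033 (SE 0.46) on the log2 scale. Genes of the mitochondrial chromosome, a sign of RNA quality, held 2.79% of counts in PTX4-OE replicate 1, and the other 5 libraries held 4.75% to 5.91%. All 13 mitochondrial mRNAs had negative log2 fold changes with the block, where 8474 of 17624 genes tested were negative. MT-ATP8 was at -0.31 (SE 0.10) and MT-CO2 at -0.30 (SE 0.078). Of the 13, 1 passed the test, MT-ND1 at -0.52 (SE 0.098, edgeR adjusted p = 0.039). MT-ND1 did not pass without the block or, at -0.61, with it when number 2 was left out. With the block it passed without number 1, at -0.31 (edgeR adjusted p = 0.0032), and without number 3, at -0.64 (edgeR adjusted p = 6.3e-11). The part of these differences in the values of B3GNT7 was not tested beyond the fits without PTX4-OE replicate 1 or without mitochondrial genes.

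Transcripts of the enzymes that build lactosamine were present in these cells. Of the sulfotransferases among the 10 genes, CHST2 had a mean of 2.06 TPM over all libraries and CHST1 had none. B3GNT2, the main polylactosamine synthase, had the highest level of the 10, at 50.8 ± 4.28 TPM in PTX4-OE and 52.5 ± 3.44 TPM in EV (SD, n = 3 each). CHST1, which sulfates the galactose of keratan sulfate, had 0 counts in all 6 libraries. A count of 0 allows up to 3 counts, or 0.0795 to 0.101 CPM (counts scaled to library size) depending on the library.

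Among the B3GNT transferases, B3GNT7 followed B3GNT2. Its deposited level was 26.2, 20.7 and 19.8 TPM in PTX4-OE replicates 1 to 3, against 34.8, 29.6 and 26.2 TPM in EV replicates 1 to 3. The highest PTX4-OE library and the lowest EV library were at nearly the same level. B3GNT8, which acts with B3GNT2 on branched N-glycans, had 6.57 ± 0.60 TPM in PTX4-OE and 6.48 ± 1.26 TPM in EV (SD, n = 3 each). B3GNT5, which starts lacto-series glycolipids, had 3.42 ± 0.62 TPM in PTX4-OE and 3.69 ± 0.48 TPM in EV (SD, n = 3 each).

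Of the 4 B4GALT transferases among the 10 genes, B4GALT4 had the lowest level. B4GALT3, which acts on N-glycans, had 47.1 ± 4.55 TPM in PTX4-OE and 45.4 ± 2.21 TPM in EV (SD, n = 3 each). B4GALT5, a lactosylceramide synthase, had 35.9 ± 4.53 TPM in PTX4-OE and 38.0 ± 3.94 TPM in EV (SD, n = 3 each). B4GALT1, the broadly acting galactosyltransferase that also makes lactose in milk, had 33.4 ± 2.62 TPM in PTX4-OE and 31.9 ± 0.40 TPM in EV (SD, n = 3 each). These 3 genes had higher levels than B4GALT4, the enzyme that adds galactose to sulfated N-acetylglucosamine in keratan sulfate. B4GALT4 had 4.59 ± 0.31 TPM in PTX4-OE and 4.68 ± 0.08 TPM in EV (SD, n = 3 each). CHST2, which sulfates N-acetylglucosamine, had 2.00 ± 0.07 TPM in PTX4-OE and 2.12 ± 0.29 TPM in EV (SD, n = 3 each).

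In order of mean TPM over the 6 libraries the genes ran B3GNT2, B4GALT3, B4GALT5, B4GALT1, B3GNT7, B3GNT8, B4GALT4, B3GNT5, CHST2 and CHST1. The ranges of B3GNT2 and B4GALT3 overlapped, as did those of B4GALT5 and B4GALT1 and those of B4GALT1 and B3GNT7. The other neighbours in this order had ranges apart. Over the 6 libraries B3GNT7 ran from 19.8 to 34.8 TPM, so the upper end of its range reached into that of B4GALT5.

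**Figure D1:**
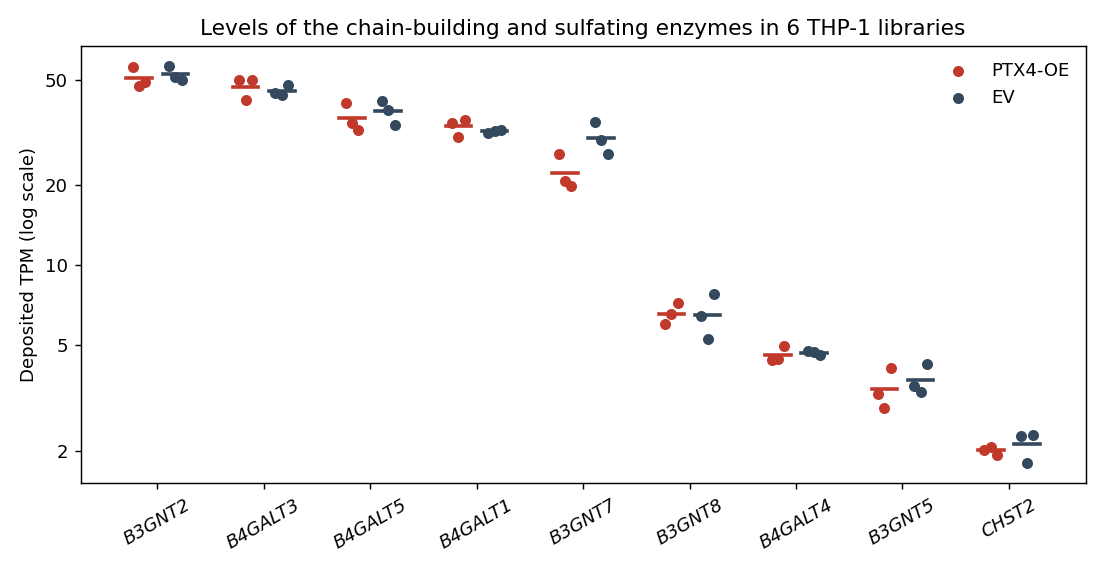
Deposited TPM on a log axis for the 9 genes with any count, 1 point per library and a bar at the mean of 3 libraries, PTX4-OE left of EV for each gene; CHST1, at 0 in every library, cannot be drawn on a log axis. B3GNT7 lies between 19.8 and 34.8 TPM, and the 4 lowest genes lie between 1.79 and 7.78 TPM.

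B3GNT7 (ENSG00000156966.8, chromosome 2, 231395710 to 231401164, plus strand, GRCh38, protein coding) was lower in PTX4-OE within each pair of libraries of like replicate number. Its count was 2420, 1648 and 1859 in PTX4-OE replicates 1 to 3, against 2871, 2297 and 2190 in EV replicates 1 to 3. Scaled for library size by edgeR's trimmed mean of M values (TMM), this was 67.3, 52.9 and 47.6 CPM in PTX4-OE, against 90.8, 78.2 and 64.7 CPM in EV. The groups overlapped by 1 library, since PTX4-OE replicate 1 stood above EV replicate 3, while each PTX4-OE library stood below the EV library of its own number. Lower RNA per cell and fewer cells making the RNA cannot be told apart in bulk samples.

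The log2 difference of B3GNT7 was -0.43, -0.56 and -0.44 in the pairs of numbers 1, 2 and 3. The model gave -0.48 (SE 0.18) when replicate number was left out and -0.48 (SE 0.051) when it was a block. The point estimate was the same in both and its error was smaller with pairs. With pairs it amounted to a level 28.2% lower in PTX4-OE. Among the 9 genes that passed the filter on low counts, B3GNT7 was the 1 below the threshold of an adjusted p of 0.05 with pairs, where 41 of 17624 genes, or 0.233%, were called lower, 0.0284% higher and 0.261% in either direction. Without pairs, 0 of the 9 were called, where 0.00567% of all genes were called higher and 0% lower (edgeR quasi-likelihood test). At an unadjusted p under 0.05, 0.505% of all genes were lower and 0.238% higher without pairs, and 4.43% lower and 4.36% higher with pairs. B3GNT7 was chosen from this contrast, so nothing is read from its being called.

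The other 8 genes that passed the filter stood closer to EV than B3GNT7 did. B3GNT5 was at -0.15 (SE 0.092), B4GALT5 at -0.12 (SE 0.049), CHST2 at -0.12 (SE 0.12) and B3GNT2 at -0.085 (SE 0.048) on the log2 scale with pairs. B4GALT4 was at -0.077 (SE 0.10), B3GNT8 at -0.019 (SE 0.12), B4GALT3 at 0.012 (SE 0.056) and B4GALT1 at 0.027 (SE 0.053). The 4 genes lower in all 3 pairs were B3GNT7, B3GNT2, B3GNT5 and B4GALT5, of 9, where 14.1% of all genes tested were lower in all 3 pairs. The groups overlapped for all 9, where 2.04% of all genes had every PTX4-OE library below every EV library and 2.08% had every one above. The median log2 fold change of the 9 was -0.085 with pairs, beside 0.0053 over all genes tested.

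**Figure D2:**
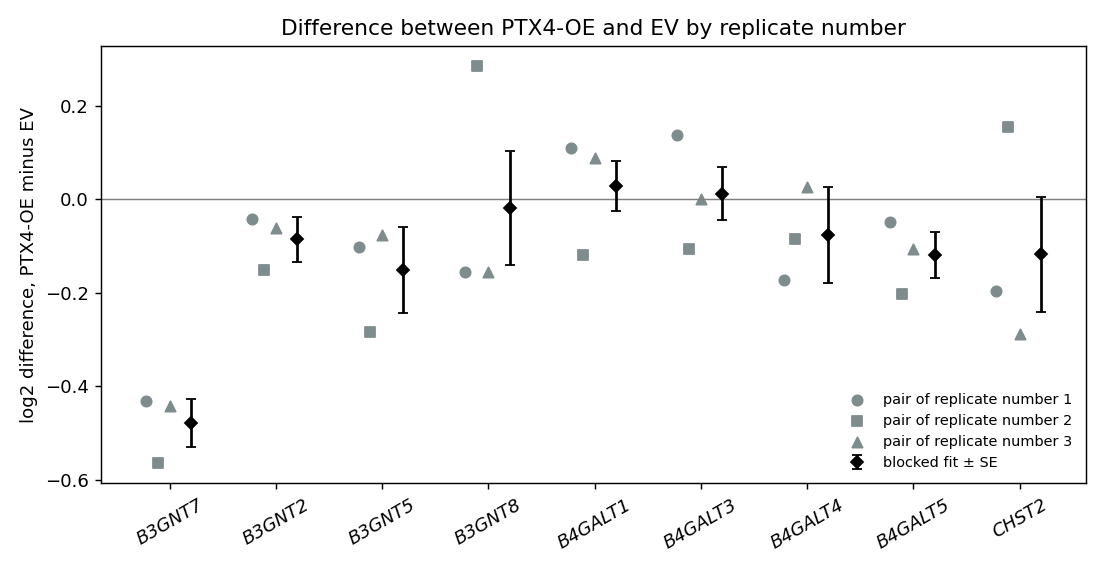
Log2 difference in TMM-normalised CPM, PTX4-OE minus EV, for the 9 genes that passed the filter on low counts: grey symbols are the 3 pairs of like replicate number, black diamonds the fit with replicate number as a block with its standard error. B3GNT7 lies at -0.43 to -0.56 in its 3 pairs, while for the others the fitted values lie between -0.15 and 0.027.

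B3GNT7 without the library low in mitochondrial RNA, PTX4-OE replicate 1, was at -0.62 with no block, and without the whole pair of number 1 at -0.50 with the block. Without EV replicate 1 instead, it was at -0.36 with no block. Leaving out 1 library also leaves the replicate numbers unequal between the conditions. With mitochondrial genes and PTX4 left out of the fit B3GNT7 was at -0.48. Over the 11 fits with the block, including those without 1 pair, its log2 fold change ran from -0.51 to -0.42.

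Replicate number itself was then tested, as a term separate from the contrast that chose the genes. Both use the residual spread of the same blocked fit, so the choice of B3GNT7 is not wholly separate from this test. B3GNT7 differed by replicate number. Its mean over both conditions was 79.1 CPM for number 1, 65.6 CPM for number 2 and 56.1 CPM for number 3, a ratio of 1.41 between the highest and the lowest (edgeR quasi-likelihood test on replicate number, Benjamini-Hochberg adjusted p = 2.96e-05). The number 1 library was the highest and the number 3 library the lowest in both PTX4-OE and EV. The labels give all 6 libraries the same batch. The sources used here do not say what libraries of like number share.

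B4GALT5 and B3GNT2 differed by replicate number in the same direction as B3GNT7. B4GALT5 had 143, 120 and 106 CPM in PTX4-OE replicates 1 to 3, against 148, 138 and 114 CPM in EV replicates 1 to 3 (edgeR adjusted p = 1.29e-04). B3GNT2 had 108, 92.2 and 89.6 CPM in PTX4-OE, against 112, 102 and 93.5 CPM in EV (edgeR adjusted p = 0.0038). In both genes the number 1 libraries were the highest and the number 3 libraries the lowest of their condition. The other 6 did not pass, and B3GNT5 came nearest (edgeR adjusted p = 0.054), with its highest library at number 3 in both conditions. Thus 3 of 9 passed, where 51.6% of all genes tested passed. The call held under all 11 alternatives for each of B3GNT7, B4GALT5 and B3GNT2. The fall from number 1 to number 3 was also seen outside the 10 genes, in B4GALT2 and LGALS9, while GFPT1 was highest at number 3. The share of all genes with this order was not counted.

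**Figure D3:**
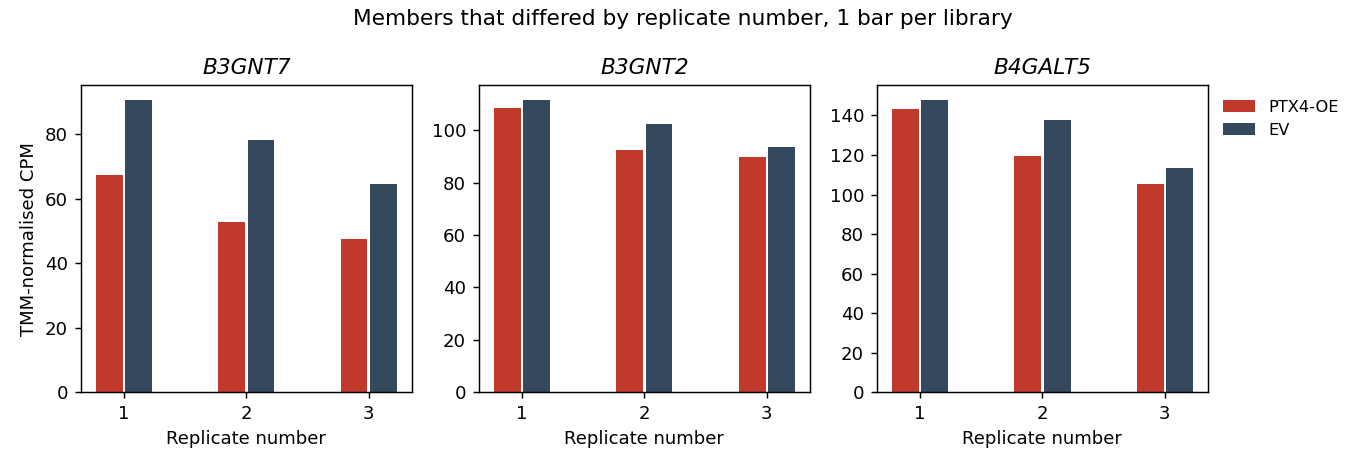
TMM-normalised CPM of B3GNT7, B3GNT2 and B4GALT5, 1 bar per library, by replicate number, PTX4-OE left of EV, each axis starting at 0. In every panel the number 1 libraries are highest and the number 3 libraries lowest within a condition, and for B3GNT7 every PTX4-OE bar is below the EV bar of its number, at 67.3 against 90.8 CPM for number 1.

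The promoters of these 3 genes are shown because the genes passed the test on replicate number. Each is the RefSeq sequence of the 250 bases before the annotated start (GRCh38.p14), 5′ to 3′ on the gene's strand, with matches to the GC box GGGCGG on either strand in capitals. B3GNT7 lies at chr2:231395460-231395709 (plus strand), B3GNT2 at chr2:62195865-62196114 (plus strand) and B4GALT5 at chr20:49713879-49714128 (minus strand).
B3GNT7: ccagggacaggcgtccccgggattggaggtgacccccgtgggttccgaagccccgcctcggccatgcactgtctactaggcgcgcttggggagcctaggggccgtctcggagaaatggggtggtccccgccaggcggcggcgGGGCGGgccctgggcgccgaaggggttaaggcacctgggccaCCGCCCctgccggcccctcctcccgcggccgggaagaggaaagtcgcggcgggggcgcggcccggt
B3GNT2: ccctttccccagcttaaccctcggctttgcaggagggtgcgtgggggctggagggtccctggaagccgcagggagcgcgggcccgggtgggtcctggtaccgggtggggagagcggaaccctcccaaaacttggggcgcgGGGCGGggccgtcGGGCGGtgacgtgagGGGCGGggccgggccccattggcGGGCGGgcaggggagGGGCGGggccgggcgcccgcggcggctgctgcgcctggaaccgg
B4GALT5: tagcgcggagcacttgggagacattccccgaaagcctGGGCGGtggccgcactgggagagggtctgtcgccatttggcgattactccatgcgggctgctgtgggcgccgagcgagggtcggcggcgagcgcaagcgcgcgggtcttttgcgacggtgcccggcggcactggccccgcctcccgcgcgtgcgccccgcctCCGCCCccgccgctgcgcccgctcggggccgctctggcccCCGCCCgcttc
All 3 are rich in G and C, at 75.6%, 77.6% and 75.6%, beside a median of 58% over 35116 promoters. The GC box matched in 7 of the 9 genes with a promoter in the table and in 42.6% of all promoters of this length. It matched 2 times for B3GNT7, 5 times for B3GNT2 and 3 times for B4GALT5. Among genes that did not pass the test on replicate number, it matched 7 times for B4GALT1 and 5 times for B3GNT5. It matched 3 times for B4GALT4, 2 times for CHST2 and 0 times for B3GNT8 and B4GALT3. A link between GC boxes and replicate number was not tested. The CCAAT box (CCAAT, either strand) matched for B3GNT7, B3GNT2 and B4GALT4, and in 32% of all promoters. The AP-1 motif TGANTCA, the CRE motif TGACGTCA, the E-box CACGTG and the TATA box TATAAA, searched on both strands, matched in 0 of the 9, and in 6.57%, 1.65%, 6.34% and 10.7% of all promoters. The ETS motif GAGGAAGT matched in 1 of the 9, B3GNT8, and in 2.17% of all promoters.

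The coding sequences of these enzymes shared only short exact runs. The longest exact run shared by the coding sequences of B3GNT7 and B3GNT2 was 14 bases, that of B4GALT1 and B4GALT3 was 16 bases, and that of CHST1 and CHST2 was 16 bases, shown as the closest stretches between members of a family.
B3GNT7 and B3GNT2: tcttcctgctgggc
B4GALT1 and B4GALT3: tgcagcgccagcagct
CHST1 and CHST2: acctcaaggtcatcca
The run of B4GALT3 and B4GALT4 was also 16 bases, and none of the 13 pairs compared within a family shared a longer one. Overlapping genes on the opposite strand are another matter. B3GNT5 shares 1048 bases, or 25.5% of its transcript, with MCF2L2 on the other strand, and it alone of the 10 had counts that were not whole in all 6 libraries. B3GNT8 shares 22.7% of its transcript with a noncoding RNA on the other strand that had 0 counts, and B4GALT3 shares 85 bases with PPOX. The sources used here do not say whether counting used the strand, so the values of B3GNT5 are less certain than those of B3GNT7, of which 5.91% is shared with other genes in runs of at least 50 bases.

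The genes whose profile over the 6 libraries was most like that of B3GNT7 were PNPLA1, TMEM121B, MNDA, SMG1P5 and IL17RA. Likeness was the root mean square difference in log2 CPM after each gene was centred on its own mean, and it was 0.047, 0.072, 0.10, 0.10 and 0.10 for these 5. The profile holds the difference between PTX4-OE and EV that chose B3GNT7, so lower values of these 5 in PTX4-OE follow from the choice. PNPLA1, a lipid-metabolising enzyme known from skin, had 4.54, 3.43 and 3.41 CPM in PTX4-OE, against 6.20, 5.11 and 4.37 CPM in EV. TMEM121B, a transmembrane protein, had 39.6, 35.8 and 30.7 CPM in PTX4-OE, against 54.7, 51.4 and 42.2 CPM in EV. In both, the number 1 library was the highest and the number 3 library the lowest of its condition. This order is that of B3GNT7 and likewise follows from the choice. MNDA is a nuclear protein of myeloid cells, SMG1P5 a pseudogene with close copies and fractional counts, and IL17RA a cytokine receptor. Among the related enzymes B4GALT5 was the most like B3GNT7, at 0.19 and rank 122 of 17623, and B3GNT2 came next at 0.22 and rank 502. The nearest tested genes of known symbol on the chromosome did not pass the test. ARMC9, 18862 bases before it, was at 0.084 (SE 0.11), and NCL, the nucleolin gene 52367 bases after it, at -0.048 (SE 0.060), on the log2 scale with pairs.

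None of the other listed genes of lactosamine and keratan sulfate biology passed the test over all genes. Of 89 such genes 72 were tested, and 0 were higher and 0 lower, with pairs or without (edgeR quasi-likelihood test). DESeq2 and limma-voom, with and without pairs, also called 0. With pairs, CHST3, GFPT1 and ST3GAL6 passed when no filter on low counts was used, ST3GAL6 when number 1 was left out and LGALS3BP when number 3 was left out. At an unadjusted p under 0.05, 4 were lower and 4 higher with pairs, and 1 lower and 0 higher without. Their median log2 fold change was -0.0026 with pairs, beside 0.0053 over all genes.

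The other sulfation genes had a median of 0.040 over 9 tested genes, of which 3 had negative values. CHST3, which sulfates chondroitin and also keratan sulfate, had 18.3, 18.5 and 23.6 CPM in PTX4-OE, against 14.8, 14.3 and 19.1 CPM in EV. Each PTX4-OE library was above the EV library of its number, but the groups overlapped. It did not pass, at 0.32 on the log2 scale (SE 0.069, edgeR adjusted p = 0.0737 with pairs). SLC35B2, which carries the sulfate donor into the Golgi, was at 0.0065 (SE 0.049), and PAPSS1, which makes that donor, at -0.067 (SE 0.062). PAPSS2, the other synthase of the donor, named after its values were seen, had 13.6, 13.7 and 15.5 CPM in PTX4-OE, against 11.1, 11.7 and 12.8 CPM in EV. Its groups did not overlap, but it did not pass, at 0.26 on the log2 scale (SE 0.080, edgeR adjusted p = 0.284 with pairs).

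The capping enzymes had a median of -0.035 over 14 tested genes, with 10 negative. ST3GAL6, a sialyltransferase that acts on lactosamine, had 7.35, 7.32 and 8.01 CPM in PTX4-OE, against 7.94, 10.9 and 11.3 CPM in EV. The PTX4-OE libraries lay close together and the EV libraries spread. Its log2 fold change was -0.40 (SE 0.11, edgeR adjusted p = 0.205 with pairs). FUT7, the fucosyltransferase of selectin ligands, was at -0.15 (SE 0.058) and ST3GAL4, another sialyltransferase, at -0.054 (SE 0.051).

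The remaining chain extension enzymes had a median of -0.0077 over 6 tested genes. B4GALT2 was at 0.011 (SE 0.061), B4GALT7, which builds the linker of other glycosaminoglycans, at -0.023 (SE 0.076) and B4GALT6, the other lactosylceramide synthase, at 0.11 (SE 0.10). Of these 6, 5 differed by replicate number, where 51.6% of all genes tested did. The branching enzymes had a median of -0.021 over 9 genes, with MGAT2 at 0.046 (SE 0.047), MGAT1 at -0.045 (SE 0.048) and GCNT1, which starts the branch of O-glycans, at -0.094 (SE 0.083).

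Supply of the sugar donors had a median of 0.023 over 11 tested genes, of which 9 were positive. GFPT1, the rate-limiting enzyme of the hexosamine pathway, had 118, 115 and 158 CPM in PTX4-OE, against 105, 105 and 132 CPM in EV. Its log2 fold change was 0.19 (SE 0.048, edgeR adjusted p = 0.163 with pairs). It was higher in all 3 pairs, and the number 3 library was the highest in either condition, the reverse of B3GNT7. GALK1 was at -0.00066 (SE 0.051) and UGP2 at 0.044 (SE 0.049).

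The medians of carriers, lectins and degradation enzymes lay near 0. The carriers of lactosamine and keratan sulfate had a median of -0.00087 over 9 tested genes, with CD68, a macrophage lysosomal glycoprotein, at -0.00087 (SE 0.056), LAMP2, a lysosomal membrane carrier of polylactosamine, at -0.062 (SE 0.048), and SELPLG, the P-selectin ligand, at -0.14 (SE 0.062). The extracellular keratan sulfate proteoglycan genes ACAN, LUM, FMOD, KERA, PRELP, OMD and OGN did not pass the filter on low counts. The galectins had a median of -0.039 over 7 genes. LGALS1, the most abundant at 2619 TPM in PTX4-OE and 2631 TPM in EV, was at -0.011 (SE 0.053), LGALS9 at -0.039 (SE 0.048), and LGALS3BP, a secreted galectin ligand, at -0.068 (SE 0.099). LGALS3BP had -0.45, -0.085 and 0.38 in pairs 1, 2 and 3, which differ in sign. The degradation enzymes had a median of -0.041 over 7 genes, with CTSA, a lysosomal protease, at -0.045 (SE 0.055).

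For comparison, the enzymes of chondroitin sulfate had a median of -0.031 over 12 tested genes, and those of heparan sulfate 0.0071 over 14, and 0 of either passed. CHSY1 was at 0.0091 (SE 0.046), CHST11 at -0.020 (SE 0.051) and DSE at 0.20 (SE 0.13) in the chondroitin group. In the heparan group NDST2 was at 0.10 (SE 0.055), EXT2 at -0.034 (SE 0.056) and HS3ST3A1 at -0.31 (SE 0.18). Over both comparison groups and the 72 genes above, 0 of 98 passed, with 5 lower and 4 higher at an unadjusted p under 0.05 with pairs (edgeR).

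**Figure D4:**
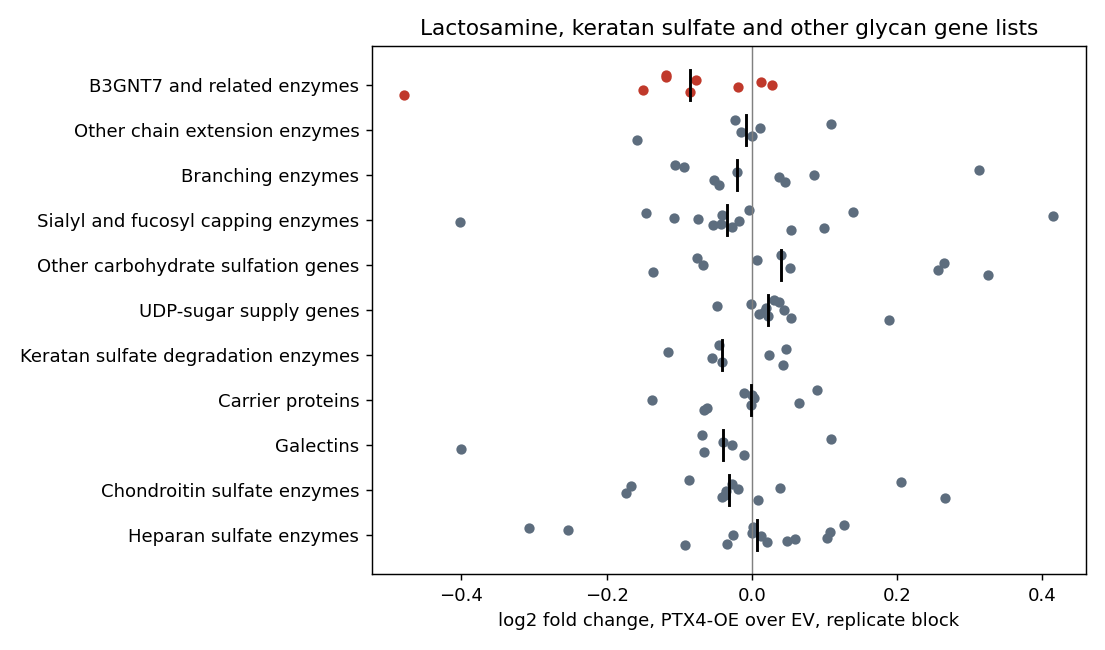
Log2 fold change, PTX4-OE over EV, with replicate number as a block, 1 point per tested gene in each list (the vertical offset within a row has no meaning) and a black bar at the list's median. The point at -0.48 in the top row is B3GNT7, and the other medians lie between -0.041 and 0.040.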

How the data were processed

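RNA with poly(A) tails was sequenced from both ends in 6 libraries, per the labels' protocols and the series' design text. The authors deposited expected counts per gene without normalization, and the submitters' processing notes name STAR, featureCounts, FastQC 0.11.5 and GRCh38 with no settings, and 7.92% of these values were not whole. The authors also deposited TPM, used here for levels. The FPKM table was not used. Aligner settings, strand and annotation release are not given in the sources used here.

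Symbols came from Ensembl identifiers, coordinates from GENCODE release 44 (GRCh38), and 39 pseudoautosomal pairs were summed. Counts were rounded, filtered by filterByExpr, scaled by TMM and tested by the quasi-likelihood F test of edgeR 4.0.16 in R 4.3.3, with Benjamini-Hochberg adjustment over 17624 genes. DESeq2 1.42.0 and limma 3.58.1 were alternatives. Each SE is the absolute log2 fold change over the square root of F. The fits were tested on simulated data. The main model held the group alone. Deviations from the group means of same-numbered libraries correlated at 0.632, 0.130 and 0.699, all over 0.1, so the numbers from the labels were taken as pairs and blocked values are printed. PTX4-OE replicate 1 with EV replicate 2, of unlike number, also passed that limit, at 0.117. P-values of fits with replicate number as a block measure the spread left after replicate number is taken out. Those of fits without the block measure the spread between libraries of a condition. The submitters call the libraries independent biological replicates.

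Members and lists were chosen with earlier results of these data known. Genes named besides the 10 and PTX4 are, per list, those past the threshold with or without the block and the 2 of highest mean TPM. The 1 of largest absolute fold with the block at a mean of at least 1 TPM is also named per list. So are the 5 genes most like B3GNT7 and its nearest tested neighbour of known symbol on each side. A gene that this rule also names is not reported here. Promoters are from RefSeq and were matched by symbol for 9 of 10 genes. Counting limits (3 counts for a 0) cover counting error only.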

Additional observations from a re-analysis of the deposited data

How the results depend on the processing

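The log2 fold change of B3GNT7 was negative under all 22 alternatives. It ran from -0.62 to -0.36 when 1 library was left out without the block, and from -0.51 to -0.44 when 1 replicate number was left out with it. B3GNT7 was past the threshold in 9 of 11 fits with the replicate block, and in 0 of 12 without. The 2 exceptions were limma on log2(TPM + 1) and on log2(TPM + 0.1).

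Counts over all genes moved widely. With the replicate block 5 genes were higher and 41 lower, against 1 and 0 without. With the block, DESeq2 size factors gave 5 and 42, no filter on low counts 106 and 190, DESeq2 6 and 32, limma-voom 14 and 53, log2(TPM + 0.1) 1 and 3, log2(TPM + 1) 1 and 0, and leaving out mitochondrial genes and PTX4 4 and 41. Leaving out 1 replicate number with the block gave 30, 8 and 41 higher and 59, 15 and 167 lower, for numbers 1, 2 and 3. Without the block, no filter gave 1 lower, DESeq2 2 lower and limma-voom 0 higher, and leaving out 1 library gave 1 higher and 0 lower each time. The cause of these shifts was not tested.

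Of the listed genes other than the 10, no filter with the replicate block called 2 higher (CHST3 and GFPT1) and 1 lower (ST3GAL6). Leaving out 1 replicate number with the block called 0 to 1 lower, ST3GAL6 without number 1 (edgeR adjusted p = 0.0325) and LGALS3BP without number 3 (edgeR adjusted p = 0.0035). Genes that differed by replicate number were 6547 to 9505 over all alternatives. B3GNT5 passed that test in 1 of 11 alternatives, with mitochondrial genes and PTX4 left out (edgeR adjusted p = 0.0453). Of the other named genes, MPO, CSF1R, MT-ND1, TMEM121B, MNDA and IL17RA passed with the block and not without it, and the block changed no other call. TMEM121B, MNDA and IL17RA were named for a profile like that of B3GNT7, which holds the difference between conditions. Nothing is read from their calls. Low counts limit CHST2, B3GNT8 and B4GALT4 most, with 159 to 310 counts per library.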
